A study of Mus musculus with 96 samples.

Results

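The hour at which each mouse was killed was examined as a predictor of transcript level in mouse brain. The labels give a kill time for each of the 16 mice, from 13 h to 15.5 h, and every array carrying such a time was used: the 48 arrays of the 1.1ST peg format for the slopes and the 48 arrays of the 1.0ST cartridge format, hybridised with the same RNA, for a second look. These are all 96 arrays of the series. Each mouse gave 3 arrays of each format, from forebrain, hindbrain and whole brain, and was reduced to 1 mean per transcript cluster (the array's unit, a group of exon probes read as 1 transcript). The slope on the hour was then estimated in log2 units per hour with strain and treatment as covariates.

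The mice were adult males of C57BL/6J (B6 in the labels) and NOD/ShiLtJ (NOD), 2 inbred strains without transgenes, with 8 of each. Of each strain 4 received 1 intraperitoneal injection of clozapine, an antipsychotic drug, and 4 received the saline vehicle. All mice were housed singly before the experiment, on a light-dark cycle with lights on in the morning, and all were killed by cervical dislocation 3 h after the injection. The cerebellum was removed and 1 hemisphere was divided into forebrain and hindbrain, while the other hemisphere was kept intact as the whole brain sample, with the olfactory bulb attached.

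The mammalian circadian clock is a feedback loop in which the transcription factors CLOCK and BMAL1 (gene Arntl), or NPAS2 in place of CLOCK, switch on the Per and Cry genes, whose proteins return to the nucleus and silence their own activators. REV-ERB and ROR receptors and the PAR bZIP factors DBP, TEF and HLF form coupled loops, and kinases and ubiquitin ligases set the life time of the PER and CRY proteins. In nocturnal rodents Per transcripts of most brain regions climb through the light phase while Arntl declines, and Per1 and Per2 also respond within hours to glucocorticoids, novelty and neuronal activity.

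The hour stood for several things at once. The mice were treated in a randomised order at even intervals, so the hour of kill was also the hour of injection, the place in the killing order and the length of the wait in the laboratory, and these cannot be told apart. Clozapine mice were killed earlier, at a mean of 13.92 h (SD 0.895, n = 8) against 14.58 h (SD 0.542, n = 8) for vehicle mice. All of the first 4 mice and 6 of the first 7 had received clozapine, but only 2 of the last 9. Strain and treatment together accounted for 18.9% of the variance of the hour. The last mouse, the NOD clozapine mouse DD675 at 15.5 h, had the highest leverage on the slope (0.506), followed by the B6 clozapine mouse BB703 at 15.0 h (0.347), so these 2 mice carried much of what the clozapine groups say about the hour.

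**Figure D1:**
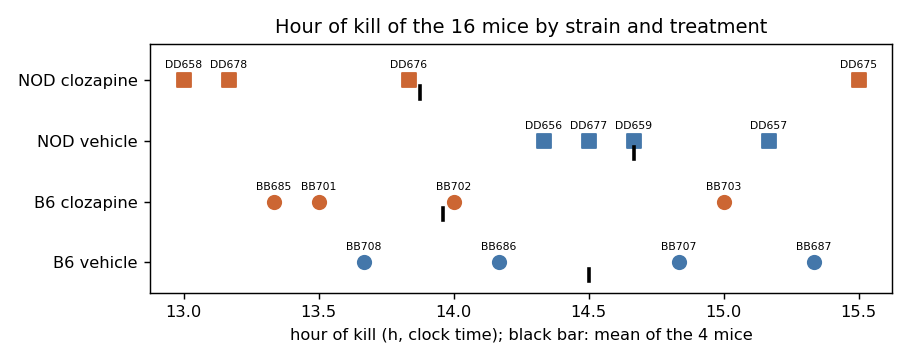
Hour of kill of the 16 mice (vertical axis: group; horizontal axis: hour of the day), with each mouse's label and a black bar at the group mean. The 4 earliest mice had received clozapine, and DD675 at 15.5 h stood alone late in the NOD clozapine group.

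Array and tissue measures showed no relation to the hour that passed adjustment. Of 17 measures (array median, position of the whole brain array between forebrain and hindbrain, body weight and 14 marker levels) none passed an exact permutation test over exchanges of the hour within groups (two-sided, smallest adjusted p = 0.576 after Benjamini-Hochberg). The median log2 value of a mouse's arrays lay between 6.45 and 6.54. Scored on all transcripts from 0 (the mean forebrain of the other mice) to 100 (their mean hindbrain), hindbrain arrays lay at 76.5 to 113, forebrain arrays at -5.41 to 23.9 and whole brain arrays at 19.4 to 70.0, so hindbrain arrays stood apart while forebrain and whole brain arrays overlapped. Of 28310 transcript clusters 21096 carried a single gene symbol. Array batch and the hemisphere taken are not given in the labels, and their part in the slopes was not tested.

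No transcript could be called as changing with the hour over the mean of the 3 arrays. With limma and Benjamini-Hochberg adjustment over all 28310 clusters, 0 of them (0%) had an adjusted p below 0.05, and the smallest adjusted p was 0.490. At an unadjusted p below 0.05, 1287 slopes (4.55%) were above 0 and 1054 (3.72%) were below 0. On the 1.0ST format 0 were called as well (smallest adjusted p = 0.169), with 859 slopes (3.03%) above 0 and 1088 (3.84%) below 0 at an unadjusted p below 0.05. The median slope of all clusters was 0.0022 per hour on 1.1ST arrays and -0.0071 on 1.0ST arrays. The median standard error of a slope was 0.028, so a slope of 0.055 per hour was the size of 2 standard errors for a typical transcript.

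The formats shared RNA and therefore do not check each other as independent mice would. Across clusters the slopes of the formats correlated at 0.475, as a description over transcripts that share the same mice. Of 568 clusters past an unadjusted p of 0.05 on both formats 550 had the same direction, 366 (1.29% of all clusters) above 0 and 184 (0.65%) below 0.

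Among the clock genes the Per genes had the steepest positive slopes, and the median slope of the group was close to 0. Of 37 genes in 6 lists (activators, repressors, the REV-ERB and ROR loop, the PAR bZIP loop, kinases and ligases, and outputs) 33 were measured under a single symbol and are described here. None of the 33 was called. At an unadjusted p below 0.05, 2 had a slope above 0 (Per2 and Per3) and 0 had one below 0, against 4.55% and 3.72% of all clusters. The median slope of the 33 was 0.0001 per hour, beside 0.0022 for all clusters, and 17 of the 33 were above 0. On 1.0ST arrays 5 were above 0 at an unadjusted p below 0.05 (Per2, Per3, Bhlhe41, Hlf and Gsk3b) and again 0 were below. Of all clusters 3.03% and 3.84% were, and the median of the 33 was 0.0032.

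The repressors, which close the loop, were the clock list with the highest median slope. Of 8 measured members 6 had slopes above 0, and their median was 0.050 per hour on either format. Leaving out 1 mouse at a time moved this median between 0.022 and 0.067, and between 0.014 and 0.061 on 1.0ST arrays.

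Per2, a repressor whose protein carries CRY into the nucleus and whose gene lies at chr1:91415977-91459351 (GRCm38.p6), had the steepest slope of the clock genes. In hour order the B6 vehicle mice stood at log2 levels of 7.42, 7.54, 7.63 and 7.74 and the B6 clozapine mice at 7.45, 7.28, 7.37 and 7.48. The NOD vehicle mice stood at 7.20, 7.35, 7.35 and 7.45 and the NOD clozapine mice at 7.31, 7.24, 7.21 and 7.55. The last mouse killed was the highest of every group, and in the vehicle groups no later mouse was below an earlier one, whereas the early and middle clozapine mice showed no order. The slope was 0.12 per hour (95% interval 0.049 to 0.18), a factor of 1.22 over the 2.5 h (1.09 to 1.38), with an adjusted p of 0.503. Of the 24 pairs of mice within a group the later mouse was higher in 19, and in 21 on 1.0ST arrays, where the slope was 0.075 (0.023 to 0.13). Leaving out 1 mouse at a time moved the slope between 0.083 and 0.14.

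Per3, a further period gene at chr4:150997018-151044707, followed with a slope of 0.087 per hour (0.028 to 0.145, adjusted p = 0.516) and 0.070 (0.024 to 0.116) on 1.0ST arrays. Its B6 vehicle mice stood at 8.19, 8.20, 8.27 and 8.43 in hour order and its B6 clozapine mice at 8.29, 8.28, 8.19 and 8.37. The NOD vehicle mice stood at 8.19, 8.34, 8.25 and 8.35 and the NOD clozapine mice at 8.00, 8.08, 8.21 and 8.19. The latest mouse was the highest in 3 of the 4 groups, and the later mouse of a pair was higher in 19 of 24.

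Per1, the period gene with the fastest response to neuronal activity and glucocorticoids, leaned upward in vehicle mice and had no order by hour in clozapine mice. Vehicle mice of B6 stood at 8.06, 8.06, 8.35 and 8.37 and those of NOD at 7.94, 8.02, 8.09 and 8.28, higher in the later mice of both strains. Clozapine mice of B6 stood at 8.73, 8.23, 8.32 and 8.86 and those of NOD at 8.67, 8.69, 8.77 and 8.51, with no order by hour, and in NOD every clozapine mouse stood above every vehicle mouse. The slope over all mice was 0.068 per hour (-0.066 to 0.202, adjusted p = 0.778). Within vehicle mice it was 0.254 (0.147 to 0.361) and within clozapine mice 0.013, each from a fit to those 8 mice. The difference by treatment, from an interaction fitted over all 16 mice, was -0.221 (-0.513 to 0.071) with an adjusted p of 0.784. Per1 was higher in clozapine than in vehicle mice by 0.497 (SE 0.097) with the hour in the fit and by 0.452 (SE 0.088) without it.

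The other repressors had intervals that reached 0. Bhlhe41, a repressor that competes for the same DNA element as CLOCK and BMAL1, had a slope of 0.063 (-0.012 to 0.137) on 1.1ST arrays and 0.068 (0.021 to 0.116) on 1.0ST arrays. Cry2 had a slope of 0.037 (-0.012 to 0.086) and Cry1, which peaks later in the day than the Per genes, one of -0.045 (-0.108 to 0.018). The slopes of Ciart and Bhlhe40 were -0.012 and 0.005.

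**Figure D2:**
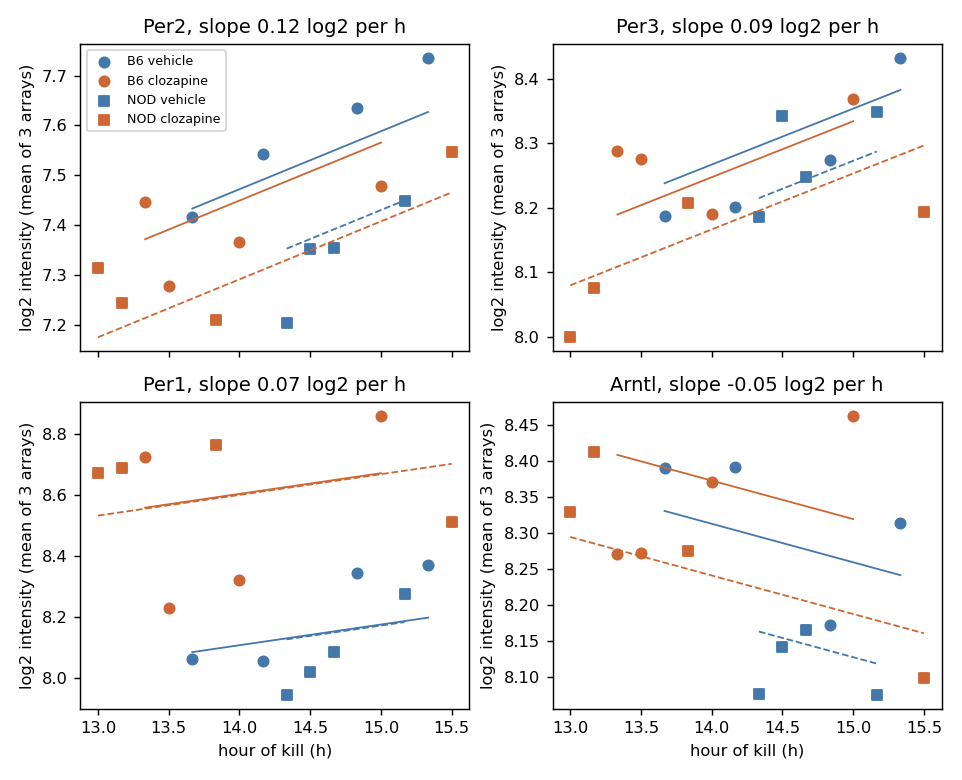
Log2 level (mean of 3 1.1ST arrays of a mouse, vertical axis) against hour of kill (horizontal axis) for Per2, Per3, Per1 and Arntl. Circles are B6 and squares NOD mice, blue is vehicle and orange clozapine, and lines are the fitted parallel slopes (solid B6, dashed NOD); Per2 and Per3 tilt upward, Per1 does so in vehicle mice, and Arntl tilts slightly downward with an interval that includes 0.

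The activators leaned the other way without passing any test. Arntl, the gene of BMAL1, had a slope of -0.053 per hour (-0.123 to 0.016) and -0.057 on 1.0ST arrays. Its B6 vehicle mice stood at 8.39, 8.39, 8.17 and 8.31 and its B6 clozapine mice at 8.27, 8.27, 8.37 and 8.46. The NOD vehicle mice stood at 8.08, 8.14, 8.17 and 8.08 and the NOD clozapine mice at 8.33, 8.41, 8.27 and 8.10, so only some of the groups ended lower than they began. Clock and Npas2, which pair with BMAL1, had slopes of -0.033 and -0.016, and Arntl2, a relative of Arntl, one of 0.043. The median of the 4 activators was -0.025.

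The coupled loops had slopes on both sides of 0, and none of them was called. In the REV-ERB and ROR loop Nr1d2 had a slope of -0.015, Rora of -0.021 and Rorb of -0.001. In the PAR bZIP loop Hlf, an activator of D-box elements, had a slope of 0.043 (-0.008 to 0.095) and 0.055 (0.012 to 0.097) on 1.0ST arrays, Tef one of 0.001 and Nfil3, the repressor at the same elements, one of -0.048. Among the 8 kinases and ligases the median was 0.0058, with Gsk3b at 0.024 (0.049 on 1.0ST arrays, 0.011 to 0.086) and Csnk1d, which marks PER proteins for destruction, at 0.026. The 9 output genes had a median of -0.0012, among them Wee1 at -0.026, Nampt at -0.034, Tspan4 at -0.050, Lonrf3 at 0.037 and Coq10b at 0.036.

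Clock genes are regulated through short promoter elements, and the stretches of Per1, Per3, Bhlhe41, Cry1 and Hlf that hold one are printed here, as examples of each element at genes described above, from RefSeq (GRCm38.p6, 250 bases before to 50 after the gene start). Of the 37 genes 29 had an entry, and Per2 was among those without one, so its promoter was not searched. The letters searched on both strands were CACGTG (E-box, the element of CLOCK and BMAL1), TTATGTAA (D-box) and TGACGTCA (CRE, the element of cAMP signalling), and no 2 different elements overlapped in these windows. Capitals mark the element and each stretch is written in the direction of transcription.
Per1 E-box, chr11:69098772-69098799, plus strand: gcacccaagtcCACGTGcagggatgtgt
Per3 D-box, chr4:151044852-151044881, minus strand: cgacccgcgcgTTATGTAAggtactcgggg
Per3 second D-box, chr4:151044805-151044834, minus strand: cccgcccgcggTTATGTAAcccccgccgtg
Bhlhe41 E-box, chr6:145865557-145865584, minus strand: ggtacgttccgCACGTGagctgggtgct
Cry1 E-box, chr10:85185098-85185125, minus strand: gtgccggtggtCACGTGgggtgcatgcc
Hlf CRE, chr11:90390908-90390937, minus strand: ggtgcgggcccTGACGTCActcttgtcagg
The E-box was present at 8 of the 29 genes, the D-box at 3 and the CRE at 1. Of all 32851 promoter windows 7.15%, 0.938% and 1.79% hold them, a share over windows and not over genes, since a gene can have several start sites. A match is a description of the letters and not of binding, and genes with and without a positive slope were among those that held one.

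Region by region, the period genes tilted most on hindbrain arrays. Per2 had a slope of 0.082 on forebrain arrays, 0.10 on whole brain arrays and 0.17 (0.079 to 0.255, adjusted p = 0.075) on hindbrain arrays, and Per3 had slopes of 0.047, 0.074 and 0.139 in the same order. Per1 stood at -0.010 on forebrain and 0.178 on hindbrain arrays. Cry1 had a slope of -0.119 on hindbrain arrays. Counted over the 33 clock genes at an unadjusted p below 0.05, 5 hindbrain slopes were above 0 and 3 below, where 2424 (8.56%) and 2338 (8.26%) of all clusters were. On forebrain arrays 1 was above 0, where 502 of all clusters (1.77%) were, and on whole brain arrays 0 were, against 1099 of all clusters (3.88%).

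By treatment, the repressors had steeper positive slopes in vehicle than in clozapine mice on 1.1ST arrays, without a difference that passed a test. The median difference over the 8, from the interaction, was -0.088 on 1.1ST arrays and -0.017 on 1.0ST arrays of the same RNA. Within the 8 vehicle mice 5 of the 8 repressors had a slope above 0 at an unadjusted p below 0.05 (median 0.123), where 1785 of all clusters (6.31%) did. Within the 8 clozapine mice 1 did (median 0.013), where 834 of all clusters (2.95%) did. Per2 was above 0 in both, at 0.20 (0.106 to 0.288) and 0.097 (0.019 to 0.175), whereas Ciart stood at 0.206 (0.089 to 0.324) in vehicle and -0.087 in clozapine mice. The difference for Ciart, from the interaction over all 16 mice, was -0.287 (-0.487 to -0.087) with an adjusted p of 0.633. Olfactory bulb markers had the same pattern, since 6 of 10 were above 0 at that level in vehicle mice (median 0.311) and 1 in clozapine mice (median 0.023), and their part in the repressor slopes was not tested. By strain, 4 of the 8 repressors were above 0 at an unadjusted p below 0.05 in B6 (median 0.083), where 4.36% of all clusters were, and 1 in NOD (median -0.016), where 902 of all clusters (3.19%) were. Per2 had a slope of 0.12 in either strain, and that of Per1 was 0.215 in B6 and -0.029 in NOD.

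MicroRNA genes of 1 cluster on chromosome 12 leaned upward together. The cluster lies in the imprinted domain that also holds Dlk1, transcribed from the paternal copy, and the long noncoding RNAs Meg3 and Rian, transcribed from the maternal copy, and its microRNAs are made from long maternal transcripts and act in neurons, among other tissues, by pairing through a seed with messenger RNAs. All 36 microRNA genes of the arrays within 500 kb of Meg3 had a slope above 0, with a median of 0.11 and a range of 0.041 to 0.185. At an unadjusted p below 0.05, 25 were above 0 and 0 below, where 4.55% and 3.72% of all clusters were, and none passed adjustment. The 36 were gathered after their slopes had been seen, so their common direction is a description. They also lie in 1 domain and are made from long transcripts, so they are not 36 separate observations.

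The mature sequences of 8 products, those of members described below and of pairs with a shared seed, follow from RefSeq (GRCm38.p6, chromosome 12, plus strand) with bases 2 to 8, the seed, in capitals.
miR-379-3p, chr12:109709102-109709123: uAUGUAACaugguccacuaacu
miR-411-3p, chr12:109710225-109710246: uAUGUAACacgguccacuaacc
miR-380-3p, chr12:109711842-109711863: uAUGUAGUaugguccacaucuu
miR-376a-3p, chr12:109723824-109723844: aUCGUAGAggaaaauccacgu
miR-381-3p, chr12:109726870-109726891: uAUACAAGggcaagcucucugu
miR-485-3p, chr12:109734946-109734967: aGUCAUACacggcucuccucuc
miR-376b-5p: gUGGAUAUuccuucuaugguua
miR-376c-5p: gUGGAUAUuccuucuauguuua
miR-379-3p and miR-411-3p share the seed AUGUAAC, as miR-376b-5p and miR-376c-5p share UGGAUAU, while the other seeds printed differ from these. The arrays read total RNA against probes of the gene and do not tell a precursor from a mature microRNA.

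Mir380 had the smallest p of this cluster on 1.1ST arrays. Its B6 clozapine mice stood at 7.82, 7.78, 7.81 and 8.14 in hour order and its B6 vehicle mice at 7.62, 7.83, 8.15 and 8.05. The NOD clozapine mice stood at 7.72, 7.76, 7.73 and 8.12 and the NOD vehicle mice at 8.26, 8.19, 8.05 and 8.03. The last clozapine mouse of each strain stood apart from the other 3 of its group, and the NOD vehicle mice ran the other way. The slope was 0.18 (0.090 to 0.274), and 0.14 (0.068 to 0.217) on 1.0ST arrays.

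The same late clozapine mice were high for other members. Mir379, whose product shares its seed with that of Mir411, had B6 clozapine mice at 6.95, 7.06, 6.77 and 7.33 and NOD clozapine mice at 6.64, 6.67, 6.70 and 6.85. Its B6 vehicle mice stood at 6.78, 6.72, 7.15 and 7.03 and its NOD vehicle mice at 7.09, 7.03, 7.04 and 7.21. Its slope was 0.155 (0.037 to 0.273) on 1.1ST and 0.265 (0.140 to 0.390) on 1.0ST arrays. Mir376a had the steepest slope of the cluster on 1.0ST arrays, at 0.328 (0.214 to 0.443, adjusted p = 0.169) beside 0.164 (0.042 to 0.285) on 1.1ST arrays. On 1.0ST arrays its NOD clozapine mice stood at 6.00, 6.01, 6.44 and 7.04, its B6 vehicle mice at 6.37, 6.59, 6.95 and 6.89, its B6 clozapine mice at 6.36, 6.61, 6.82 and 6.80 and its NOD vehicle mice at 6.85, 6.69, 6.68 and 6.53. Late mice were thus higher than early ones in the B6 groups and among NOD clozapine mice, but not among NOD vehicle mice. Mir381 had slopes of 0.172 (0.070 to 0.274) and, on 1.0ST arrays, 0.178, and Mir485 had slopes of 0.123 (0.059 to 0.188) and 0.086. Mir376b stood at 0.185 and 0.250, and Mir411 at 0.121 and 0.211, in the same order of formats.

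On 1.0ST arrays 33 of the 36 had slopes above 0 (median 0.10). At an unadjusted p below 0.05, 26 were above 0 and 1 below 0, where 3.03% and 3.84% of all clusters were. The 1 below was Mir666 at -0.060 (-0.100 to -0.020). On both formats 23 were above 0 at that level, where 1.29% of all clusters were. The 267 other microRNA genes had a median slope of 0.0034 (-0.013 on 1.0ST arrays). Of these, 12 were above 0 and 9 below at an unadjusted p below 0.05, near the 4.55% and 3.72% of all clusters. Leaving out 1 mouse at a time kept the median of the 36 between 0.093 and 0.137. The median was 0.166 in vehicle and 0.10 in clozapine mice, and 0.117 in B6 and 0.089 in NOD mice.

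Hindbrain arrays held the steepest slopes of this cluster as well. Their median was 0.20 on hindbrain arrays, 0.078 on forebrain and 0.062 on whole brain arrays. At an unadjusted p below 0.05, 28 of 36 were above 0 on hindbrain, 3 on forebrain and 0 on whole brain arrays, where 8.56%, 1.77% and 3.88% of all clusters were. Mir154 had a hindbrain slope of 0.305 with an adjusted p of 0.0558, the smallest of the cluster. The hindbrain slope exceeded the forebrain slope in 31 of 36 (median difference 0.123), and the smallest adjusted p of that difference was 0.206.

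The long RNAs of the domain did not all share this direction. Rian, the noncoding RNA that hosts small nucleolar RNAs of the domain, had a slope of -0.118 (-0.233 to -0.003) and -0.137 (-0.259 to -0.014) on 1.0ST arrays. Its B6 clozapine mouse BB703 stood at 8.17, below the other 3 of its group at 8.61 to 8.77, and without 1 mouse the slope ranged from -0.19 to -0.043. Meg3 had a slope of 0.036 (-0.013 to 0.084), and 0.047 (0.007 to 0.087) on 1.0ST arrays, and Dlk1, which encodes a membrane ligand, one of 0.077.

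**Figure D3:**
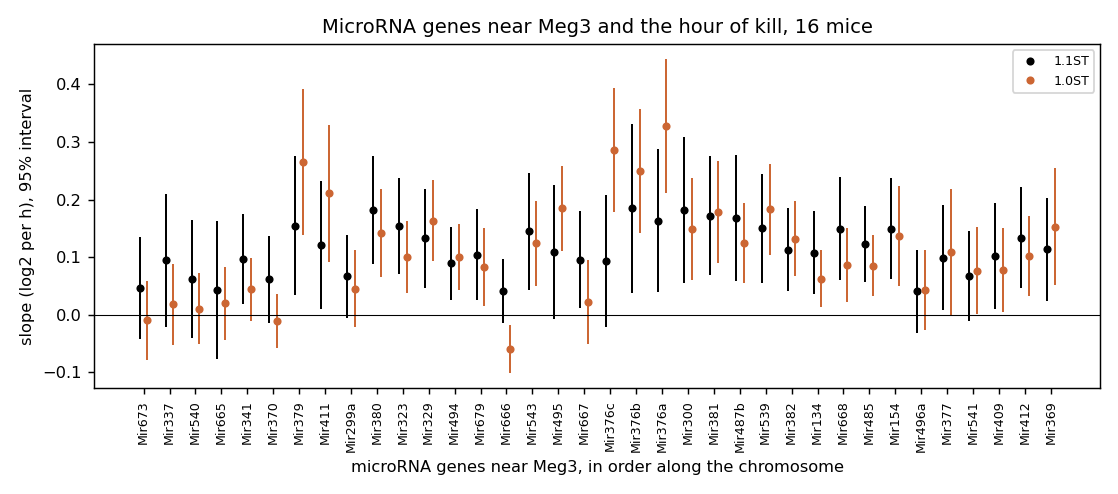
Slope per hour (log2, vertical axis) of the 36 microRNA genes near Meg3 (horizontal axis, in order along the chromosome), with 95% intervals, black for 1.1ST and orange for 1.0ST arrays. All 36 points of the 1.1ST format and 33 of the 1.0ST format lie above 0.

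The 24 single genes with the smallest p, 12 in each direction, had adjusted p values of 0.490 to 0.503 and are given by their values. Zfp941, a zinc finger gene, had the most ordered levels. Its B6 clozapine mice stood at 9.00, 8.99, 8.93 and 8.84 in hour order and its B6 vehicle mice at 8.94, 8.91, 8.86 and 8.79. Its NOD clozapine mice stood at 9.18, 9.09, 9.03 and 8.93 and its NOD vehicle mice at 8.99, 8.94, 8.84 and 8.89. In 3 of the groups each mouse was below the one killed before it, and the later mouse was higher in 1 of 24 pairs (5 of 24 on 1.0ST arrays). The slope was -0.091 (-0.129 to -0.053), and -0.061 on 1.0ST arrays.

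Among the positive slopes were 2 chromatin regulators. Ncoa3, a coactivator of nuclear receptors, had B6 clozapine mice at 8.73, 8.78, 8.85 and 8.98, B6 vehicle mice at 8.78, 8.77, 9.03 and 9.01, NOD clozapine mice at 8.41, 8.48, 8.39 and 8.70 and NOD vehicle mice at 8.74, 8.76, 8.73 and 8.71. Its slope was 0.126 (0.069 to 0.183), and 0.091 (0.047 to 0.135) on 1.0ST arrays, while the NOD vehicle mice were level. Rcor1, the corepressor of REST, had a slope of 0.130 (0.071 to 0.189), and 0.095 on 1.0ST arrays, with the late mice highest in both B6 groups (8.72 among clozapine and 8.78 among vehicle mice). Klf2, a transcription factor of endothelial cells, had a slope of 0.136 (0.068 to 0.203), and 0.047 on 1.0ST arrays.

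The other positive slopes were those of Gm5089 (0.090), Lrrc8c (0.109), Myo19 (0.126), Nelfa (0.101), Zfp608 (0.119), Polr1a (0.081), C130023O10Rik (0.149), Slc10a1 (0.072) and Cyp2b13 (0.075). Further negative slopes were those of 0610040B10Rik (-0.158, -0.224 to -0.092), Trmt12 (-0.126), Snora21 (-0.130), Slc25a2 (-0.128), Eif3k (-0.076), Ankrd49 (-0.083), Fbxl4 (-0.083), Zfp709 (-0.183), Zfp617 (-0.121), Ube2l6 (-0.122) and Snora69 (-0.136). On 1.0ST arrays 20 of the 24 kept their sign. Gm5089, Slc10a1, Cyp2b13 and Zfp617 did not, at -0.053, -0.034, -0.062 and 0.045, and the first 3 of these were dim, with mean log2 levels of 4.35, 4.09 and 3.27.

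On hindbrain arrays alone 20 of 28310 clusters (0.0706%) were called, 12 that rose with the hour and 8 that fell, and 14 of them carried a single symbol. All 20 had the same direction on 1.0ST hindbrain arrays, 17 at an unadjusted p below 0.05, where 6.87% of all clusters were above 0 and 5.59% below 0 at that level. On that format 0 clusters were called (smallest adjusted p = 0.169). None of the 20 reached an unadjusted p below 0.05 on forebrain or whole brain arrays, where only 2.77% and 5.53% of all clusters did. Those that rose were Cracd (0.255 per hour, 0.185 to 0.326, adjusted p = 0.0118), Susd2 (0.291), Adar (0.204, 0.140 to 0.267), Grin2d (0.334), Catsper3 (0.234), Frmpd3 (0.275), Tox2 (0.251), Vwa5b2 (0.330), Plbd2 (0.249) and 3 without a name here. Those that fell were the small nucleolar RNA genes Snora73a (-0.401) and Snora73b (-0.423), which are near-identical copies whose probes can share signal, Zfp709 (-0.343), Slitrk2 (-0.338), Sar1b (-0.184) and 3 without a name. The Cracd and Slitrk2 clusters were not the brightest of their symbol, and the brightest of each was not called. Hindbrain arrays were 1 of several alternatives to the mean over the 3 arrays, which gave no call.

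Grin2d, an NMDA receptor subunit, had the steepest of the called positive slopes. On hindbrain arrays its B6 clozapine mice stood at 7.24, 7.23, 7.39 and 7.80 and its B6 vehicle mice at 7.18, 7.09, 7.71 and 7.80. Its NOD clozapine mice stood at 6.82, 7.12, 6.89 and 7.60 and its NOD vehicle mice at 7.41, 7.55, 7.52 and 7.63. The last mouse was the highest of each group, by the widest gap in both clozapine groups. The slope was 0.334 (0.220 to 0.448, adjusted p = 0.0358).

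Susd2, a membrane protein gene, had hindbrain levels of 9.03, 9.06, 9.06 and 9.41 in B6 clozapine, 9.12, 9.22, 9.57 and 9.48 in B6 vehicle, 9.00, 8.93, 9.02 and 9.78 in NOD clozapine and 9.36, 9.68, 9.56 and 9.58 in NOD vehicle mice. Its slope was 0.291 (0.203 to 0.378, adjusted p = 0.0159), and the NOD clozapine mouse DD675 was again far above its group.

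Snora73a, a box H/ACA small nucleolar RNA gene, fell from 8.10, 8.28 and 8.00 to 7.60 in B6 clozapine and from 8.28, 8.50 and 8.11 to 7.41 in NOD clozapine mice. Its B6 vehicle mice stood at 7.79, 7.83, 7.50 and 7.27 and its NOD vehicle mice at 8.00, 8.05, 7.73 and 7.26. In all 4 groups the last mouse was the lowest, and the slope was -0.401 (-0.513 to -0.290, adjusted p = 0.0118). Sar1b, a GTPase of vesicle transport from the endoplasmic reticulum, had a slope of -0.184 (-0.253 to -0.115, adjusted p = 0.045), with the NOD clozapine mice at 11.19, 11.17, 11.08 and 10.65 and the B6 clozapine mice at 10.98, 10.92, 10.95 and 10.89.

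The number of hindbrain calls depended on single mice. Leaving out 1 mouse at a time gave 0 calls without the B6 clozapine mouse BB703 (smallest adjusted p = 0.0536) and without the NOD clozapine mouse DD675 (0.0563), and 429 calls without the B6 clozapine mouse BB685. The other mice left 6 to 57: 57 without BB687, 27 without DD677, 10 without BB708, 9 without DD657, 8 without BB686, 7 without DD658 or BB702 and 6 without DD678 or DD659, while leaving out BB701, DD656, DD676 or BB707 left 16 to 22. The hindbrain slope minus the forebrain slope of the same mice passed adjustment for 0 of 28310 clusters (smallest adjusted p = 0.174), with 1400 differences above 0 and 1657 below 0 at an unadjusted p below 0.05, so the hindbrain calls are not shown to be particular to the hindbrain.

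Markers of choroid plexus, the epithelium that makes cerebrospinal fluid, leaned downward with the hour on the same arrays. All 15 measured markers had hindbrain slopes below 0 (median -0.394 per hour, -0.260 on 1.0ST arrays), 13 at an unadjusted p below 0.05, where 8.26% of all clusters were, and none called. Ttr, transthyretin, had a slope of -1.52 per hour on hindbrain arrays and ranged there from 6.33 to 12.72. In hour order the summed level of the list on hindbrain arrays was 12.91, 13.34, 12.80 and 10.01 in NOD clozapine mice. In B6 clozapine mice it was 11.97, 11.66, 12.10 and 10.53. Vehicle mice stood at 10.83, 10.25, 10.40 and 10.66 in NOD and at 10.70, 13.04, 10.36 and 11.96 in B6. The last mouse was thus the lowest of both clozapine groups, while the vehicle groups showed no steady fall. No array gave a level of 0. The slope of the summed level was -0.864 (SE 0.335, exact permutation p = 0.0652, adjusted p = 0.521). In bulk tissue fewer cells of a type and less RNA per cell cannot be told apart. On forebrain and whole brain arrays the median slopes of the list were 0.087 and 0.070.

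Cerebellar markers leaned the same way on hindbrain arrays, although the cerebellum had been removed. All 13 had slopes below 0 (median -0.427, -0.305 on 1.0ST arrays), 5 at an unadjusted p below 0.05 against the same 8.26%. The summed level of the list ranged from 11.9 to 14.1 (slope -0.359, exact permutation p = 0.189). In hour order it was 13.40, 14.15, 13.63 and 12.06 in NOD clozapine and 12.24, 13.31, 12.19 and 12.66 in B6 clozapine mice. In NOD vehicle mice it was 11.91, 12.06, 12.36 and 12.30 and in B6 vehicle mice 12.35, 12.16, 12.22 and 12.40. Only the NOD clozapine group ended lower than it began, and the later mouse of a pair was higher in 14 of 24. With the choroid plexus level of the hindbrain array as a further covariate 0 clusters were called (smallest adjusted p = 0.472), and with the cerebellar level 0 were called (0.132). All 20 kept their direction and an unadjusted p below 0.05 under either covariate and without any 1 mouse. The 20 had been picked for a small p on these same arrays, so this was largely set in advance and is a description. The part of these tissues in the hindbrain slopes was not tested beyond this.

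**Figure D4:**
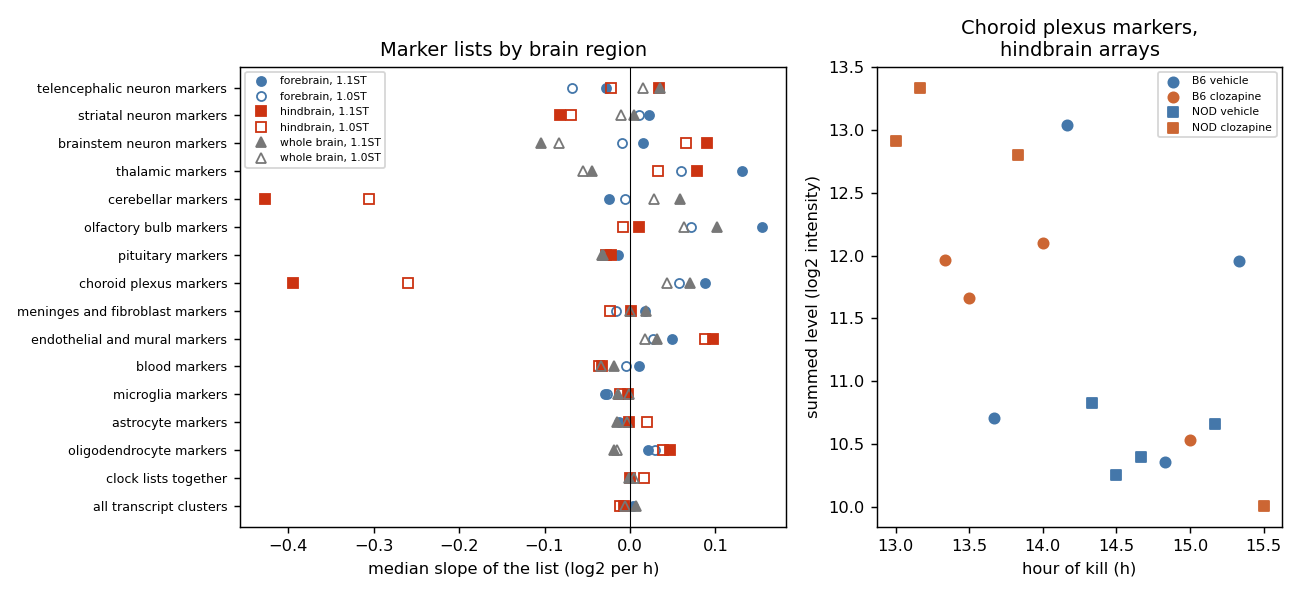
Left, median slope per hour (log2) of 14 marker lists, the clock genes and all clusters on forebrain (blue circles), hindbrain (red squares) and whole brain arrays (grey triangles), filled for 1.1ST and open for 1.0ST arrays. Right, summed choroid plexus level on hindbrain arrays (log2) against hour of kill, where the mice span 10.01 to 13.34; the choroid plexus and cerebellar lists have their lowest medians on hindbrain arrays.

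Vessel cell markers leaned upward over the mean of the 3 arrays. Of 18 endothelial and mural markers 15 had slopes above 0 (median 0.064), 4 at an unadjusted p below 0.05 against 4.55% of all clusters, and none was called. These were Abcb1a, the efflux pump of brain endothelium (0.077), Vwf, the clotting factor (0.108), Pdgfrb, the pericyte receptor (0.124), and Myh11, the myosin of smooth muscle (0.161). On 1.0ST arrays all 18 were above 0. Myh11 stood at 6.18, 6.27, 6.90 and 6.62 in B6 vehicle, 6.40, 6.47, 6.36 and 6.80 in B6 clozapine, 6.44, 6.33, 6.50 and 6.35 in NOD vehicle and 6.12, 6.16, 6.14 and 6.28 in NOD clozapine mice. The range was widest in B6, where 9 of the 18 had a slope above 0 at an unadjusted p below 0.05 (median 0.124), where 4.36% of all clusters did. In NOD 1 was above 0 and 1 below at that level (median -0.006), where 3.19% and 2.68% of all clusters were.

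Genes of ribosomes and of protein folding leaned downward. Of 73 ribosomal protein genes, a list gathered after seeing the slopes, 70 were below 0 (median -0.042), 24 of them at an unadjusted p below 0.05 against 3.72% of all clusters. On 1.0ST arrays the median was -0.021, with 10 below 0 and 1 above at that level, against 3.84% and 3.03% of all clusters. On both formats 4 of the genes were below 0 at that level, where 0.65% of all clusters were. Of 15 endoplasmic reticulum stress genes 14 were below 0 (median -0.038), while 52.5% of all clusters were above 0. Among them the disulphide isomerase gene Pdia6 (-0.075) and the transcription factor gene Xbp1 (-0.062) were at an unadjusted p below 0.05, where 3.72% of all clusters were. On 1.0ST arrays all 15 were below 0, while 40.0% of all clusters were above 0. The chaperone gene Hspa5, at -0.080, was the one that reached that level, where 3.84% of all clusters were.

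Immediate early genes, switched on within minutes by neuronal activity or handling, had median slopes of opposite sign in the strains. Over all mice none of 30 reached an unadjusted p below 0.05 (median 0.043). This median moved between -0.014 and 0.097 when 1 mouse was left out, and it was -0.0016 on 1.0ST arrays. Within B6 13 had a slope above 0 at that level and 0 below (median 0.143), where 4.36% of all clusters were above. Within NOD 7 were below 0 and 0 above (median -0.053), where 758 of all clusters (2.68%) were below. The difference between strains passed adjustment for none of them, with adjusted p values of at least 0.94.

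Atf3, a stress-induced factor, had slopes of 0.246 in B6 and -0.110 in NOD mice when each strain was fitted alone, and the interaction over all 16 mice gave a difference of -0.297 (-0.434 to -0.161). Its B6 clozapine mice stood at 5.35, 5.43, 5.51 and 5.89 and its B6 vehicle mice at 5.31, 5.39, 5.44 and 5.62. Its NOD clozapine mice stood at 5.59, 5.82, 5.74 and 5.38 and its NOD vehicle mice at 5.47, 5.49, 5.52 and 5.56. Both B6 groups and the NOD vehicle group were ordered upward, and the NOD clozapine group had its lowest mouse last. Dusp1, a phosphatase gene induced by the same stimuli, stood at 9.76, 9.35, 9.73 and 10.85 in B6 clozapine and 10.20, 9.89, 9.91 and 9.54 in NOD clozapine mice, so the highest B6 and the lowest NOD clozapine mouse were the last of their groups, BB703 and DD675. Sik1, a kinase gene induced by cAMP, had slopes of 0.387 in B6 and -0.108 in NOD mice.

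In the remaining lists few genes or none reached an unadjusted p below 0.05 over all mice. None of 26 glucocorticoid-induced genes did (median -0.0079), although 4 were above 0 at that level within vehicle mice (median 0.086), where 6.31% of all clusters were. Neither did any of 16 heat shock genes (median -0.022), 20 sterol synthesis genes, 13 fasting genes (0.017) or 15 p53 targets (-0.022). Of 17 peptides of the suprachiasmatic nucleus and hypothalamus 2 had slopes above 0 (median -0.032), and Pomc stood at -0.088 (-0.167 to -0.008). Olfactory bulb markers were all above 0 (10 of 10, median 0.081), telencephalic, striatal and brainstem neuron markers had medians of 0.015, -0.019 and -0.016, and microglial, astrocyte and oligodendrocyte markers medians of -0.015, -0.006 and 0.019.

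Slopes that differed between treatments, strains or regions were not called either, with 0 of 28310 clusters for each interaction. Between clozapine and vehicle mice (smallest adjusted p = 0.550) Lhx5, a homeobox gene, differed by 0.252 (0.141 to 0.363), Glra3, a glycine receptor subunit, by 0.432 (0.229 to 0.635) and 4930578G10Rik by -0.925 (-1.349 to -0.501). Between NOD and B6 mice (0.507) Adamts1, a secreted protease, differed by -0.469 (-0.646 to -0.291, and -0.281 on 1.0ST arrays) and Nfil3, the D-box repressor, by -0.219 (-0.309 to -0.130, and -0.178 on 1.0ST arrays), while fits to each strain alone gave 0.061 in B6 and -0.117 in NOD. Between hindbrain and forebrain Tsc2, a brake on mTOR, differed by 0.258 (0.153 to 0.363), Kcnd1, a potassium channel, by 0.290 (0.170 to 0.409) and Mirlet7d by -0.231 (-0.332 to -0.131).

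Since clozapine mice were killed 0.667 h earlier on average, the clozapine contrast was fitted with and without the hour. Without it 4 clusters (0.0141%) were called, 2 higher and 2 lower in clozapine mice, and with it 0 (smallest adjusted p = 0.280, with 864 above 0 and 1057 below at an unadjusted p below 0.05). On 1.0ST arrays 8 clusters (0.0283%) were called without the hour, 7 higher and 1 lower, and 0 with it (smallest adjusted p = 0.250).

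The differences themselves shrank little. Nt5e, the ectoenzyme that makes adenosine, was higher in clozapine mice by 0.365 without and 0.322 with the hour, while Nrp1, a guidance receptor, moved from -0.266 to -0.217 and Mir151 from -0.266 to -0.236. On 1.0ST arrays the p53 targets Cdkn1a, Sesn1 and Trp53inp1 moved from 0.763 to 0.700, from 0.226 to 0.210 and from 0.469 to 0.411, and Jag1, a Notch ligand, from -0.235 to -0.200. Across the clusters called without the hour the difference kept 81.7% to 94.4% of its size. The median standard error of the clozapine contrast over all clusters was 0.039 without and 0.042 with the hour. The 26 glucocorticoid-induced genes had a median difference of 0.248 without and 0.244 with the hour, and the 33 clock genes one of 0.018 and 0.026.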

How the data were processed

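The deposited values were log2 signals per transcript cluster of Affymetrix Mouse Gene 1.1ST and 1.0ST arrays, which the authors had normalised by RMA in Affymetrix Expression Console 1.1, the 2 formats separately. Levels of the formats were therefore not set against each other. The 3 arrays of a mouse were averaged, and the slope on the hour of kill was fitted with strain and treatment as covariates in limma 3.58.1 (R 4.3.3; lmFit and eBayes, 16 mice, 12 residual degrees of freedom), without a filter. Adjustment was by Benjamini-Hochberg over all 28310 clusters and a call needed an adjusted p below 0.05. Interactions added 1 product term, and region contrasts used differences between 2 arrays of a mouse. Technical and marker measures were tested by exact permutation of the hours within the 4 groups (331776 exchanges). Lists are described by counts and medians. Of several clusters with 1 symbol the brightest was used, except among the hindbrain calls, where every called cluster is given. The members and lists were chosen with earlier results of these data known. Beyond the clock lists the text names 12 genes in each direction by smallest p, up to 5 for an interaction and up to 4 from any other list. Array depth has no count; the number of mice limits precision. Replicates are separate mice, whose numbers pair none across groups. In the labels, mice with numbers close together share a litter size, which was a covariate only in an alternative. The fit was tested on simulated data. Alternatives were other covariates, regions, formats, filters, blocks and leaving out each mouse; those within the hindbrain fit, without the whole brain array of DD656 and on the mean of both formats were added after seeing the data. Probes with several symbols or none were tested but not named. Sequences are from RefSeq (GRCm38.p6).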

Additional observations from a re-analysis of the deposited data

Results flagged for a closer look

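Of 36 groups of 4 mice checked over 9 measures, 3 held a mouse far from the other 3, where chance gives about 1 group in 20. At that rate 3 of 36 is not far from chance. For Mir380 the B6 clozapine mouse BB703, killed at 15.0 h, stood at a log2 level of 8.14, with the nearest of its group at 7.82. For the same gene the NOD clozapine mouse DD675, killed at 15.5 h, stood at 8.12, with the nearest at 7.76. The summed choroid plexus level on the hindbrain array of DD675 was 10.01, with the nearest NOD clozapine mouse at 12.80. Both mice were the last of their group. Mir380 had the smallest p of its cluster for the slope on the hour, so late mice that stand apart there follow in part from that choice.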

How the results depend on the processing

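For the slope over the mean of 3 arrays, 19 of 22 other settings and all 16 fits without 1 mouse gave no call. The 48 arrays with a replicate block for the mouse gave 1 call (0610040B10Rik, correlation within a mouse 0.0283). The same block with 5 surrogate variables gave 18 (17 above 0 and 1 below, 0.0224), and hindbrain arrays alone gave 20. With so low a correlation both block fits count the arrays of a mouse as nearly separate, although the hour has 1 value per mouse. Surrogate variables 1 and 5 had an r squared with the hour, given strain and treatment, of 0.287 and 0.148. No setting called a clock gene. The clock median slope of 0.0001 became 0.0205 in B6 mice, -0.0145 with the hour alone and -0.0137 with strain alone as covariate. The difference between hindbrain and forebrain slopes gave 0 to 1 calls without 1 mouse (1 without the NOD vehicle mouse DD677). The clozapine contrast gave 4 calls without the hour and 8 on 1.0ST arrays without it. The 20 hindbrain calls became 0 on 1.0ST hindbrain arrays, 0 with the cerebellar and 0 with the choroid plexus level as covariate, and 0 to 429 without 1 mouse; these alternatives were chosen after seeing the data. Of 65 genes followed, 30 kept their sign in every setting. With 16 mice over 2.5 h, a slope of 0.055 per hour was 2 standard errors for a typical transcript and would not pass adjustment. Steeper slopes, such as 0.116 per hour for Per2, did not pass either, so the size that could be detected was larger than 0.055.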
